A study of Mus musculus with 8 samples.

Results

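The adrenergic receptors are the cell surface receptors for noradrenaline and adrenaline, and their transcripts were read here in whole adipose tissue of cold-exposed mice. The 8 members, found by gene symbol among 18395 genes with counts, were Adrb1 and Adrb3 (beta receptors), Adra1a, Adra1b and Adra1d (alpha1 receptors), and Adra2a, Adra2b and Adra2c (alpha2 receptors). They were picked as a gene family and not by a rule on their values, though with earlier results of these data known. The controls were 4 libraries of genotype WT, and the other 4, of genotype KO, came from mice whose brown adipocytes lacked Kindlin-2, an integrin-binding focal adhesion protein encoded by Fermt2. Every mouse, controls included, had spent 6 hours at 4 °C, so there was no warm group. No label gives the depot, the strain, the age or the driver of the deletion. The labels do not say whether the libraries of a group came from separate animals, and p-values therefore measure the spread between these libraries.

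Sympathetic nerves release noradrenaline onto brown fat in the cold. Beta receptors couple through Gs to adenylyl cyclase and raise cAMP, which drives lipolysis and heat production, and the beta3 receptor is the one for which rodent adipocytes are best known. Alpha1 receptors act through Gq and phospholipase C on intracellular calcium, and alpha2 receptors act through Gi to lower cAMP.

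The libraries held between 33672272 and 43253559 counts in WT and between 35734373 and 40927141 in KO. Levels are CPM, counts per 1000000 on library sizes scaled by edgeR's TMM factors. Fermt2 lay at 201 to 244 CPM (WT) and 132 to 192 CPM (KO), with a log2 fold change of KO against WT of -0.45 (SE 0.14, edgeR adjusted p = 0.134). Adipocyte markers were abundant in all libraries, with summed levels of 9440 to 11940 CPM in WT and 7854 to 8985 CPM in KO. Brown adipocyte markers summed to 7746 to 9769 CPM in WT and 4450 to 7301 CPM in KO. The largest part of that sum was Ucp1, with means of 5983 CPM (WT) and 3258 CPM (KO). Cidea (means of 2495 and 2343 CPM) and Cox7a1 (329 and 280 CPM) came next, and their groups overlapped. Of the 8 brown adipocyte markers, 7 lay lower and 1 higher in KO. Of the white depot genes Hoxc9 was at 0 in 7 libraries, and Hoxc8 and Nnat were counted in all 8 (0.678 to 7.83 CPM and 1.65 to 36.8 CPM). WT replicate 3 held skeletal muscle RNA (33640 CPM over 8 markers, against at most 219 CPM elsewhere), and KO replicate 2 held the most T and NK cell RNA (129 CPM over 6 markers, against at most 25.9 CPM elsewhere). A second comparison, chosen with these libraries known, leaves both out and is called the 6-library comparison.

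The results turn on the beta receptors, so the most alike stretch of 90 bases in their aligned coding sequences is shown, as a measure of how far their reads can be told apart. Capitals mark the bases that differ. The stretch covers coding bases 1040 to 1129 of Adrb1 (chr19:56723411-56723500, + strand) and 971 to 1060 of Adrb3 (chr8:27227360-27227449, - strand), in GENCODE M21 transcripts on GRCm38, 5′ to 3′.
Adrb1: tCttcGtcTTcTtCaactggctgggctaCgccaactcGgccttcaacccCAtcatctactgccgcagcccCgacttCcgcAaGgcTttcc
Adrb3: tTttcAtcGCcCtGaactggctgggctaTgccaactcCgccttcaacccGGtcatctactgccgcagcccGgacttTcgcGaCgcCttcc
Over these 90 bases 75 were identical and 15 differed. The longest run that the coding sequences of Adrb1 and Adrb3 share anywhere, at any alignment, was 30 bases. Over the 1172 aligned coding bases, gaps left out, the identity was 67.7%. With gap positions counted it was 55.1%. Among all 28 pairs of members the identity with gaps left out lay between 62.2% and 74.8%. It was highest for Adra2a with Adra2c, whose longest shared run was 26 bases. Annotated antisense genes overlap Adrb3 (Gm45470) and Adra1d (Gm14285). Neither is in the count table and the strand setting of the counting is not given, so reads from them cannot be told apart from those of the receptors.

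Adrb3 was the most abundant receptor transcript in every library. Per kilobase of exon, the only scale on which different receptors are compared, it averaged 66.6 CPM per kb over the 8 libraries. Adra1a followed at 7.42, Adrb1 at 4.29 and Adra1d at 3.89 CPM per kb. Adrb3 lay above Adra1a in 8 of 8 libraries, Adra1a above Adrb1 in 7 and Adrb1 above Adra1d in 3, so the order of the last pair did not hold from library to library. Adra2c (0.367 CPM per kb) and Adra2b (0.308) came next, with Adra2c the higher in 5 of 8 libraries. Adra2a (0.0511) and Adra1b (0.0505) were the lowest, with Adra2a the higher in 4. Among 13868 tested genes with a known length, Adrb3 stood at percentile 95.1 of the mean CPM per kb, Adra1a at 66.4, Adrb1 at 53.2 and Adra1d at 50.6. The alpha2 receptors and Adra1b stood between percentiles 0.534 and 12.6. With the longest coding transcript as the length, Adrb1 lay above Adra1d in 6 of 8 libraries, and Adra1b and Adra2a changed places.

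**Figure D1:**
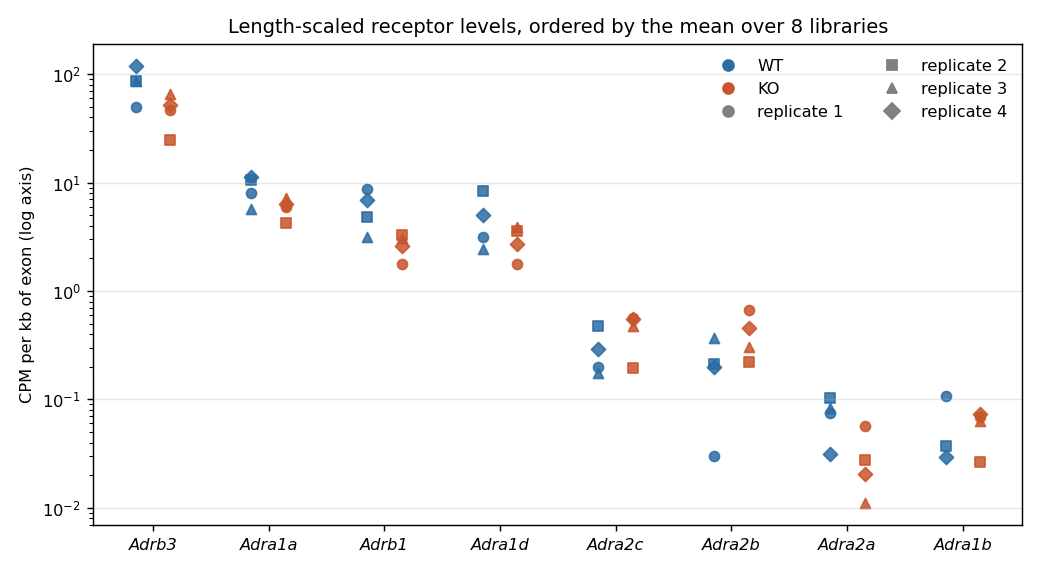
Length-scaled level of each receptor (CPM per kb of exon, log axis) in each WT and KO library, with receptors ordered by their mean over 8 libraries and 1 marker shape per replicate number. Adrb3 is on top in every library, the alpha2 receptors and Adra1b lie below 1 CPM per kb, and the WT library in which Adra1b had 0 counts is not drawn.

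The classes were unequal in every library. The beta receptors held 86.2% ± 4.14 of the summed receptor CPM per kb in WT and 82.7% ± 3.80 in KO (SD, n = 4), nearly all of it Adrb3. The alpha1 receptors held 13.2% ± 4.12 in WT and 15.8% ± 3.98 in KO. Their mean summed level went the other way, at 13.7 CPM per kb in WT and 9.025 in KO. The mean beta level was 91.5 CPM per kb in WT and 50.3 in KO. Since Adrb3 makes up most of the sum, a lower Adrb3 by itself raises the shares of the other classes. The alpha2 receptors held 0.536% ± 0.164 in WT, with a range of 0.364% to 0.712%, and 1.5% ± 0.541 in KO, with a range of 0.982% to 2.22%. The alpha2 shares of the groups thus did not overlap, while their summed level did (0.305 to 0.787 CPM per kb in WT and 0.445 to 1.29 in KO). The shares depend on the length used. With the longest coding transcript as the length, Adra1a averaged 15.1 CPM per kb over the 8 libraries and Adrb3 80.5. Shares on that length are not given here. These shares are a description, with no test.

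With all 8 libraries, edgeR's quasi-likelihood test called 0 of the 7 receptors tested at an adjusted p under 0.05, where it called 0% of the 13901 genes. Adra1b did not pass the filter on low counts and was not tested. At an unadjusted p under 0.05 there were 3 receptors, Adrb1, Adrb3 and Adra1a, all lower in KO, where 11.1% of all genes lay lower at that p. Limma-voom called 0 receptors, and 0 of all 13901 genes. Of the 7 receptors, DESeq2 gave no adjusted p for Adra2a and called 1 of 6, Adrb1 (8.71% of the genes it tested). Limma-voom with sample quality weights called 1 of 7, also Adrb1 (6.84% of the genes tested). In the 6-library comparison edgeR called 1 of 7 receptors, again Adrb1, against 3.32% of all genes (1.5% called as lower and 1.82% as higher). In sign, 5 of 7 receptors lay lower and 2 higher in KO in both comparisons, where 49.5% of all genes lay lower with 8 libraries and 48.9% with 6. The median log2 fold change of the 7 was -0.65 with 8 libraries and -0.63 with 6, against medians over all genes of 0.00362 and 0.0107.

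**Figure D2:**
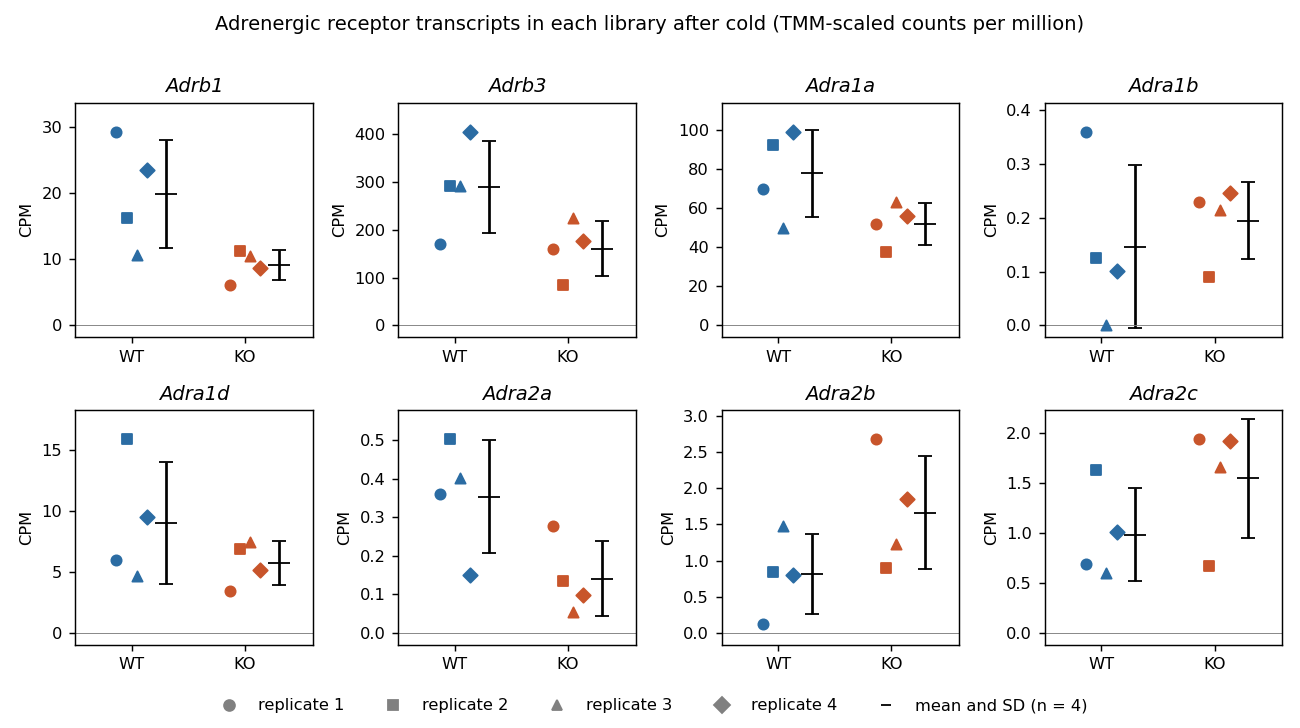
Level of each receptor (CPM on TMM-scaled library sizes, linear axis with its own range in each panel) in 4 WT and 4 KO libraries, with mean and SD. The KO points of Adrb1 sit at 6.06 to 11.2 CPM and the WT points at 10.7 to 29.3 CPM, and in no panel do the groups separate fully.

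Adrb1 encodes the beta1 receptor, which couples to Gs and is best known from heart muscle. Adrb1 reached 29.3, 16.2, 10.7 and 23.5 CPM in WT replicates 1 to 4 and 6.06, 11.2, 10.5 and 8.75 CPM in KO replicates 1 to 4. Of the KO libraries 3 lay below every WT library. The groups overlapped only in that KO replicate 2 lay above WT replicate 3, the pair of libraries that stood apart. Group means were 19.9 ± 8.15 CPM (WT) and 9.12 ± 2.28 CPM (KO; SD, n = 4 each), and the log2 fold change was -1.13 (SE 0.32, edgeR adjusted p = 0.126, unadjusted p = 0.00592). By DESeq2 the adjusted p was 0.0121, and by limma-voom with quality weights 0.0329. In the 6-library comparison Adrb1 fell, and the log2 fold change was -1.45 (SE 0.26, edgeR adjusted p = 0.0335). That call rested on few libraries: leaving out 1 more gave adjusted p-values from 0.0332 to 0.183, and it was kept only without KO replicate 3. Without WT replicate 1, WT replicate 2, WT replicate 4, KO replicate 1 or KO replicate 4 the adjusted p was 0.0593, 0.0866, 0.103, 0.0536 and 0.183 in turn.

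In whole tissue, fewer cells of a type and less RNA per cell cannot be told apart. The mean of the summed adipocyte markers was 10800 CPM for WT and 8293 CPM for KO. Per 1000 CPM of these markers, Adrb1 stood at 1.83 ± 0.729 CPM for WT and 1.10 ± 0.249 CPM for KO (SD, n = 4 each). The KO to WT ratio of Adrb1 was 0.458 before that division and 0.598 after it, and the divided values overlapped (1.13 to 2.73 in WT, 0.754 to 1.35 in KO). The part of the adipocyte share in the difference was not tested.

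Adrb3 encodes the beta3 receptor, the Gs-coupled receptor through which noradrenaline stimulates rodent fat. Adrb3 reached 169, 290, 292 and 405 CPM in WT replicates 1 to 4 and 159, 83.7, 224 and 177 CPM in KO replicates 1 to 4. WT replicate 1 lay below 2 of the KO libraries and the other WT libraries lay above all of them. Group means were 289 ± 96.0 CPM (WT) and 161 ± 58.1 CPM (KO; SD, n = 4 each), and the log2 fold change was -0.85 (SE 0.33, edgeR adjusted p = 0.194). In the 6-library comparison it was -0.63 (SE 0.29, edgeR adjusted p = 0.247), and from there -0.31 without WT replicate 4 and -0.90 without WT replicate 1. Per 1000 CPM of adipocyte markers Adrb3 stood at 26.9 ± 8.95 CPM for WT and 19.3 ± 6.49 CPM for KO, a ratio of 0.718.

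The beta receptors did not keep one ratio to each other. Per kilobase, Adrb3 exceeded Adrb1 by 5.79, 17.9, 27.4 and 17.3 times in WT replicates 1 to 4 and by 26.2, 7.49, 21.4 and 20.2 times in KO replicates 1 to 4. The WT libraries alone spanned the whole range of this ratio, and the KO libraries lay within it. WT replicate 1 held the highest Adrb1 and the lowest Adrb3 of its group, and KO replicate 2 likewise.

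Adra1a encodes the alpha1A receptor, which couples to Gq. Adra1a reached 69.9, 92.2, 49.8 and 98.9 CPM in WT replicates 1 to 4 and 51.6, 37.4, 63.0 and 55.7 CPM in KO replicates 1 to 4. WT replicate 3, the library with muscle RNA, was the only WT library that reached into the KO range. Group means were 77.7 ± 22.3 CPM (WT) and 51.9 ± 10.8 CPM (KO; SD, n = 4 each), and the log2 fold change was -0.58 (SE 0.23, edgeR adjusted p = 0.199). In the 6-library comparison the groups did not overlap, and the log2 fold change was -0.62 (SE 0.15, edgeR adjusted p = 0.0583). On the same 6 libraries DESeq2 called it (adjusted p = 0.00790, with 12.9% of genes called), as did limma-voom with quality weights (adjusted p = 0.0157, with 11.4% called). Per 1000 CPM of adipocyte markers the KO to WT ratio of Adra1a was 0.880.

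Adra1d, the alpha1D receptor of vascular smooth muscle, had 6.00, 15.9, 4.65 and 9.55 CPM in WT replicates 1 to 4 and 3.41, 6.86, 7.48 and 5.18 CPM in KO replicates 1 to 4. The groups overlapped widely and WT replicate 2 was the highest library. The log2 fold change was -0.65 (SE 0.40, edgeR adjusted p = 0.351), and -0.23 without WT replicate 2. In the 6-library comparison it was -0.97 (SE 0.39, edgeR adjusted p = 0.185). Adra1b, the alpha1B receptor, was barely counted: 12, 4, 0 and 4 counts in the WT libraries and 10, 4, 8 and 10 in the KO libraries. For such receptors the depth is the limit, since 3 counts correspond to 0.0670 to 0.10 CPM depending on the library.

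Low counts in the table were mostly even numbers, so a count may not stand for 1 separate fragment, and fewer fragments than counts may lie behind these values.

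Of the alpha2 receptors Adra2a was near that limit, while Adra2c had at least 18 counts in every library and Adra2b at least 27 in all but WT replicate 1. Adra2a, the alpha2A receptor that also serves as a presynaptic brake on noradrenaline release, had 12, 16, 12 and 6 counts in WT replicates 1 to 4 and 12, 6, 2 and 4 counts in KO replicates 1 to 4. The groups overlapped, and the log2 fold change was -1.29 (SE 0.62, edgeR adjusted p = 0.256). Adra2b, the alpha2B receptor, had 4, 27, 44 and 32 counts in WT and 116, 40, 46 and 75 counts in KO. In CPM, 2 of the KO libraries exceeded every WT library. Group means of Adra2b were 0.811 ± 0.553 CPM (WT) and 1.66 ± 0.782 CPM (KO; SD, n = 4 each). The log2 fold change of Adra2b was 1.04 (SE 0.63, edgeR adjusted p = 0.346), and 1.69 (SE 0.62) with 6 libraries (edgeR adjusted p = 0.147). From the 8-library value it went to 0.68 without WT replicate 1, the library with 4 counts, and to 0.71 without KO replicate 1. Adra2c, the alpha2C receptor, had 23, 52, 18 and 40 counts in WT and 84, 30, 62 and 78 counts in KO. In CPM 3 KO libraries lay above all WT libraries, and the log2 fold change was 0.65 (SE 0.46, edgeR adjusted p = 0.410), and 1.00 without WT replicate 2.

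Endothelial markers also lay higher in KO, and mural markers did so less evenly. The 9 endothelial markers were all higher in mean in KO and summed to 1398 to 1926 CPM in WT and 1708 to 3073 CPM in KO. The 10 mural and smooth muscle markers summed to 957 to 1183 CPM in WT and 838 to 1376 CPM in KO, with 8 of the 10 higher, 2 lower and, with 8 libraries, 0 at an unadjusted p under 0.05. Per 1000 CPM of endothelial markers, Adra2b stood at 0.505 ± 0.409 CPM for WT and 0.633 ± 0.164 CPM for KO, and Adra2c at 0.558 ± 0.210 and 0.592 ± 0.138 CPM (SD, n = 4 each). Divided by the endothelial sum, the KO to WT ratio of Adra2b was 1.25 in place of 2.05, and that of Adra2c 1.06 in place of 1.57. Divided by the mural sum, the ratios were 1.71 for Adra2b and 1.29 for Adra2c. The part of vessel cells in these differences was not tested.

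With all 8 libraries 0 of the 7 tested receptors had groups that did not overlap, against 13.4% of all genes. Without WT replicate 3 and KO replicate 2 there were 4, Adrb1 and Adra1a lower and Adra2b and Adra2c higher in KO, against 30.7% of all genes (15.3% lower and 15.4% higher).

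**Figure D3:**
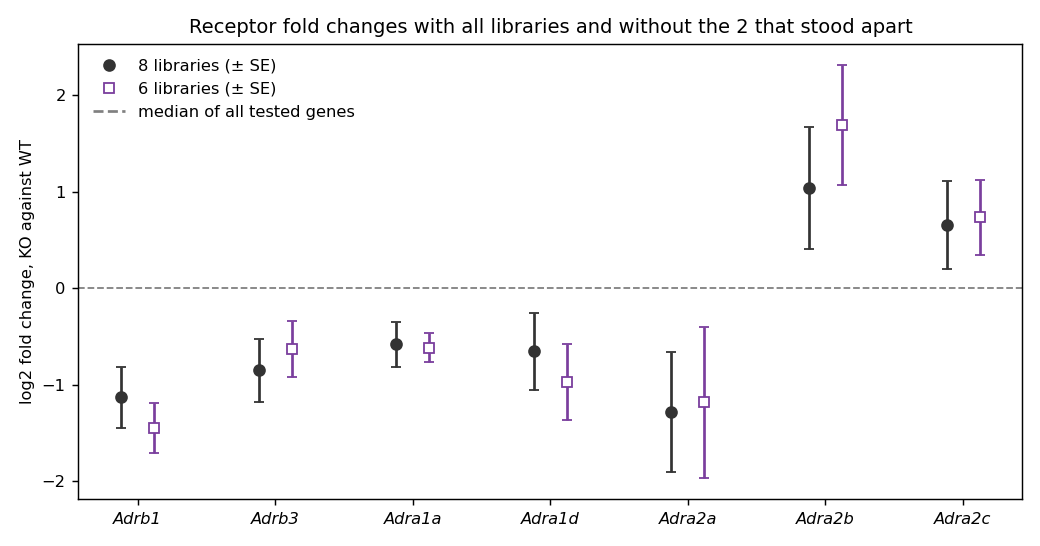
Log2 fold change of KO against WT with its SE for the 7 tested receptors, with 8 libraries (filled circles) and without WT replicate 3 and KO replicate 2 (open squares). The dashed line is the median of all genes tested with 8 libraries. Each receptor keeps its side of that line in both comparisons, and Adrb1 with 6 libraries (-1.45) is the call at an adjusted p under 0.05.

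Promoters are shown for Adrb1, the receptor called in the 6-library comparison, and for Adra2b, which had the largest positive fold change. They are RefSeq sequences on GRCm38.p6, from 250 bases before to 50 after the gene's start, and 5 of the 8 members were matched (Adrb1, Adra1b, Adra2a, Adra2b and Adra2c). Capitals mark the motifs searched, on both strands. TGACGTCA is the cAMP response element, the site of CREB. The shorter site TGACG, with which that element begins, was searched separately. The other motifs were the TATA box by the letters TATAAA, the CCAAT box by its name, and the GC box by the letters GGGCGG. Adrb1 is at chr19:56721867-56722166 (+ strand) and Adra2b at chr2:127362929-127363228 (+ strand).
Adrb1: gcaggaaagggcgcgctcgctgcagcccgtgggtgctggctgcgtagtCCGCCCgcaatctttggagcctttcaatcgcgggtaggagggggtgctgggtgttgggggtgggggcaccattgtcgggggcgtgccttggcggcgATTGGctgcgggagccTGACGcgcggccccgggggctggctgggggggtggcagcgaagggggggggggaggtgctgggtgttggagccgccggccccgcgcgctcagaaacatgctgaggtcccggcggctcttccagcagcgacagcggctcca
Adra2b: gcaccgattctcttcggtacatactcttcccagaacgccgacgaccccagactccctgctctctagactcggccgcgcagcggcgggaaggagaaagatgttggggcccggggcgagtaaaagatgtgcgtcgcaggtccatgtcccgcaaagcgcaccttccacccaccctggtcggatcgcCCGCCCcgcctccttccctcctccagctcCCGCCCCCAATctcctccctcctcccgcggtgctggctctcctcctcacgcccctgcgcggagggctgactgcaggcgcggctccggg
The Adrb1 promoter held 1 TGACG, 1 CCAAT and 1 GC box, and the Adra2b promoter 1 CCAAT and 2 GC boxes. Over 32851 promoters of that length, 20.8% held TGACG, 37.4% CCAAT and 35.7% the GC box. The full element TGACGTCA, in 1.79% of promoters, was in none of the matched members' windows, and Adra2a was the other member with TGACG. GC content was 72.3% for Adrb1 and 68.0% for Adra2b, against a median of 52.7%. A match in these windows is a description of letters and not of a bound site.

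Genes for making, taking up and breaking down the ligand were counted too, but their mRNA in the tissue does not measure how much noradrenaline the nerves released. Th, the rate-limiting enzyme of catecholamine synthesis, was at 0 counts in 7 of 8 libraries, with 44 counts in WT replicate 3, and Dbh, which makes noradrenaline from dopamine, reached at most 2 counts. Of 11 genes for catecholamine synthesis, uptake and breakdown 6 were tested, and 4 lay lower and 2 higher in KO (median log2 fold change -0.26). Slc22a3, an extraneuronal uptake carrier, had 33.4 to 62.6 CPM in WT and 21.7 to 33.2 CPM in KO, so the groups did not overlap. Its log2 fold change was -0.66 (SE 0.21, edgeR adjusted p = 0.153). Maob, a monoamine oxidase, fell in the 6-library comparison, by 0.92 on the log2 scale (edgeR adjusted p = 0.0289), where the value with 8 libraries was -0.57 (SE 0.23, adjusted p = 0.197). Slc29a4, a monoamine transporter, differed by 0.95 (adjusted p = 0.213), and Maoa by -0.32 (adjusted p = 0.311).

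Downstream of the beta receptors, the Gs arm was mixed. Of 11 genes for Gs alpha subunits and adenylyl cyclases 9 were tested, 4 lower and 5 higher with 8 libraries, with a median of 0.23. Adcy3, an adenylyl cyclase, had 123, 57.4, 57.2 and 92.9 CPM in WT replicates 1 to 4 and 21.9, 43.8, 45.8 and 28.0 CPM in KO replicates 1 to 4. All 4 KO libraries of Adcy3 lay below all WT libraries, and the log2 fold change was -1.25 (SE 0.32, edgeR adjusted p = 0.118, and 0.0679 with 6 libraries). Adcy4, another cyclase, rose by 0.71 in the 6-library comparison (edgeR adjusted p = 0.0339) and differed by 0.58 with 8 libraries (adjusted p = 0.259). Adcy7, the cyclase of blood cells, differed by 1.25 (adjusted p = 0.123), and by 0.78 without WT replicate 3 and KO replicate 2, the library richest in T and NK cell RNA (adjusted p = 0.12). The part of that RNA in the Adcy7 value was not tested. Gnas, the Gs alpha subunit, had means of 3901 CPM (WT) and 2990 CPM (KO), and its log2 fold change was -0.38 (SE 0.15, adjusted p = 0.200).

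The Gi and Gq arms that the alpha2 and alpha1 receptors use were mixed as well. All 5 Gi genes were tested, 2 lower and 3 higher, with a median of 0.27. Gnao1, the Go alpha subunit, had 39.9 to 60.8 CPM in WT and 24.4 to 38.8 CPM in KO, with no overlap. It fell in the 6-library comparison, by 0.68 on the log2 scale (edgeR adjusted p = 0.0316), and the value with 8 libraries was -0.69 (SE 0.17, adjusted p = 0.105). Gnai1 differed by -0.51 (adjusted p = 0.118), while its relatives Gnai2 and Gnai3 differed by 0.33 and 0.27 (adjusted p = 0.229 and 0.201). Of 11 Gq genes 10 were tested, 3 lower and 7 higher, with a median of 0.26, and 0 were called in either comparison (0% of all genes with 8 libraries and 3.32% with 6). At an unadjusted p under 0.05 there were 2 Gq genes with 8 libraries, both higher, where 10.4% of all genes lay higher at that p. They were Itpr3, an inositol trisphosphate receptor, at 0.69 (adjusted p = 0.15), and Gna15, a Gq-class subunit of blood cells, at 1.11 (adjusted p = 0.154). Plcb2 and Plcb1, phospholipase C isoforms, differed by 1.11 and 0.45 (adjusted p = 0.247 and 0.250).

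Receptor kinases and arrestins switch off and internalise activated receptors. Of 12 such genes, trafficking partners included, 6 lay lower and 6 higher, with a median of 0.07. Arrb2, beta-arrestin 2, had 13.2 to 15.5 CPM in WT and 19.8, 34.3, 20.1 and 20.7 CPM in KO replicates 1 to 4. All KO libraries lay above all WT libraries, and KO replicate 2 was the highest. Arrb2 rose in the 6-library comparison, by 0.55 (edgeR adjusted p = 0.0472), and the value with 8 libraries was 0.74 (SE 0.19, adjusted p = 0.112). The kinases Grk2, Grk5 and Grk6 differed by 0.19, 0.39 and 0.30 with 8 libraries (adjusted p = 0.319, 0.203 and 0.209).

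Other receptors that feed the same cAMP pool were compared too. Of 11 other Gs-coupled receptors 9 were tested, 5 lower and 4 higher with 8 libraries, and the median was -0.05 with 8 libraries and 0.41 with 6. Tshr, the thyrotropin receptor, differed by -0.62 (edgeR adjusted p = 0.142), Ptger2, a prostaglandin E2 receptor, by 0.51 (adjusted p = 0.187) and Adora2a, an adenosine receptor, by 0.49 (adjusted p = 0.213). Of 9 other Gi-coupled receptors 7 lay lower and 2 higher, with a median of -0.39. Ptger3, the Gi-coupled prostaglandin E2 receptor, had 17.4 to 23.9 CPM in WT and 11.3 to 14.0 CPM in KO, with no overlap. Its log2 fold change was -0.69 (SE 0.15, edgeR adjusted p = 0.0981, and 0.0841 with 6 libraries). Ffar2, a receptor for short-chain fatty acids, differed by -1.85 (adjusted p = 0.197), and by -0.85 without WT replicate 3 and KO replicate 2. Npy1r, a neuropeptide Y receptor, differed by 0.74 (adjusted p = 0.208).

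Genes known to be induced by beta-adrenergic signalling were mostly lower in KO. Of 21 such genes 20 were tested, 17 lower and 3 higher, with a median of -0.93, and 9 had an unadjusted p under 0.05, all lower (11.1% of all genes lay lower at that p). With 8 libraries 0 were called, and the 6-library comparison called 2, both lower (1.5% of all genes were called as lower). The genes with an unadjusted p under 0.05 numbered 5 with 6 libraries, all lower. The share of all genes at that p with 6 libraries is not given here, so this count is not read further. For several targets the WT mean rested on WT replicates 1 and 3. An example chosen after its values were seen is Nr4a1, an immediate early nuclear receptor, with 731, 34.8, 397 and 31.5 CPM in WT replicates 1 to 4 and 28.6 to 159 CPM in KO. Irs2, Atf3, Fosb and Nr4a2 were likewise highest in those WT libraries, and Fos was high in WT replicate 3 alone (107 CPM, against at most 6.06 CPM elsewhere). Ucp1, the uncoupling protein of brown fat, had 6000, 6274, 5082 and 6576 CPM in WT replicates 1 to 4 and 2879, 1792, 4301 and 4060 CPM in KO replicates 1 to 4. The groups did not overlap (log2 fold change -0.88, SE 0.25, edgeR adjusted p = 0.131), and KO replicate 2 was the lowest library for Ucp1 as for Adrb3 and Adra1a. Elovl3, a fatty acid elongase induced by cold, fell by 1.14 on the log2 scale with 6 libraries (edgeR adjusted p = 0.0289). Pdk4, a kinase that restrains glucose oxidation, fell by 0.98 (adjusted p = 0.0313). Pde4d, a phosphodiesterase that degrades cAMP, differed by -0.78 with 8 libraries (adjusted p = 0.169). Adipocyte markers also lay mostly lower with 8 libraries, 7 of 8 with a median of -0.51. Of the brown adipocyte markers 7 of 8 lay lower, with a median of -0.30. Ucp1 and Elovl3 are in both the target list and the brown adipocyte list. The part of the adipocyte share in the lower targets was not tested.

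**Figure D4:**
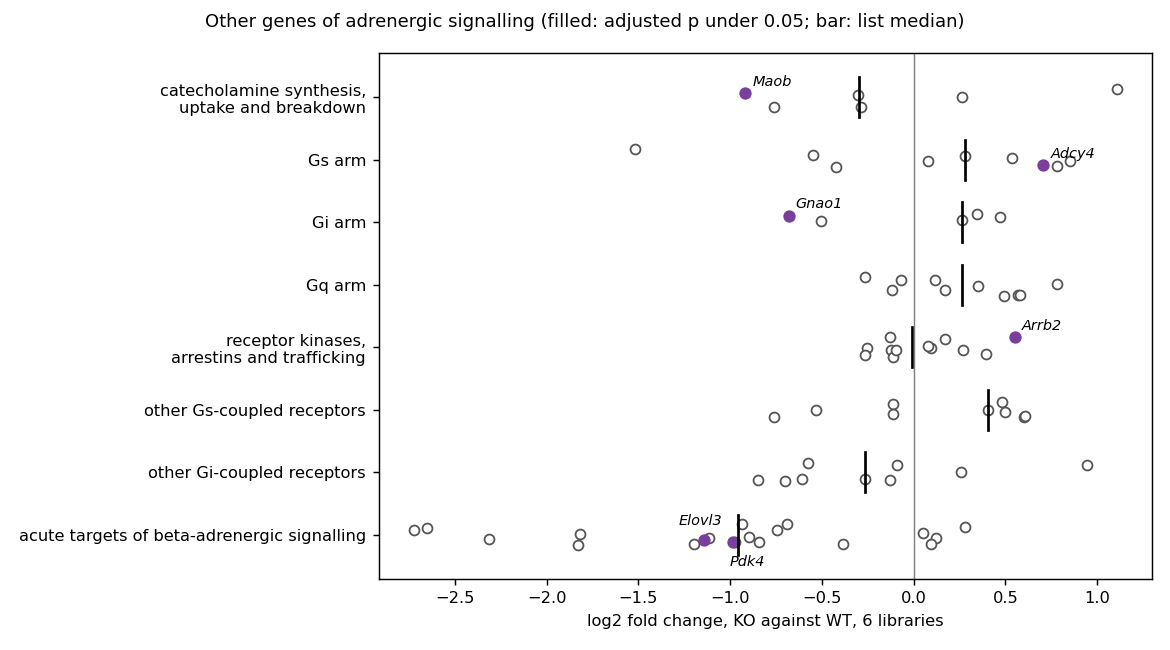
Log2 fold change of KO against WT in the 6-library comparison for each tested gene of 8 lists of adrenergic signalling (1 point per gene, spread vertically for legibility). Filled points have an edgeR adjusted p under 0.05, bars are list medians, and the beta-adrenergic targets are the list whose median lies near -1 (-0.96) while the other 7 medians lie between -0.30 and 0.41. The adipocyte and brown adipocyte marker lists, which are not drawn, had medians of -0.56 and -0.46 with the same 6 libraries.

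The genes whose levels followed each receptor most closely over the 8 libraries differed between receptors. All these correlations are of log2 CPM over 8 libraries that share the genotype groups and the scaling, and they are a description. For Adrb1 the closest was Mboat7 (Pearson r = 0.975, Spearman rho = 0.952), then Bag4 (r = 0.967, rho = 0.976) and Mto1 (r = 0.966, rho = 0.952). For Adrb3 it was Mbnl2 (r = 0.974, rho = 0.976), then Qk (r = 0.973, rho = 0.952) and Dhrs11 (r = 0.972, rho = 0.976). For Adra1a it was Tbc1d20 (r = 0.978, rho = 0.976), then Lmtk2 (r = 0.972, rho = 0.929) and Arhgap35 (r = 0.967, rho = 0.929). For Adra1d it was Slc6a19 (r = 0.966, rho = 0.929), then Ngef (r = 0.964, rho = 0.905) and Adck2 (r = 0.964, rho = 0.952). Of 13901 genes, 81 reached r = 0.9 with Adrb1, 65 with Adrb3, 88 with Adra1a and 25 with Adra1d. No receptor was among the 3 closest genes of another.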

How the data were processed

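Polyadenylated RNA from mouse adipose tissue was sequenced in 8 libraries (4 WT, 4 KO), by a dUTP strand-marking method described in the labels' protocols. The authors deposited raw read counts per gene as whole numbers for 18395 genes, and the submitters' processing notes name GRCm39 as the genome build. Which aligner, counting program, annotation and strand setting were used is not given in the sources at hand. Symbols from GENCODE M21 (built on GRCm38) matched 18321 genes, and exon lengths are from the same release.

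The 8 members, the gene lists and the 6-library comparison were chosen with earlier results of these data known, and no pattern shown by them is independent support. The comparison of KO against WT used edgeR 4.0.16 under R 4.3.3 (filterByExpr by group, TMM, robust quasi-likelihood F test, group as the only term), with p-values adjusted by Benjamini and Hochberg over all 13901 genes tested and a threshold of 0.05. SE is the log2 fold change over the root of F. Named genes were the 8 members, Fermt2, up to 4 tested members of each pathway list with the smallest p, up to 3 members of each marker list with the highest mean CPM, and the 3 genes most correlated (log2 CPM, prior count 2) with each receptor of at least 5 CPM. Th, Dbh and Hoxc9 are named for being at or near 0. Fits were checked on simulated counts. The alternatives were other scaling factors, other filters, DESeq2 1.42.0, limma-voom (limma 3.58.1) with and without quality weights, a replicate block, each library left out, and an adjusted p under 0.10. Alignments used Biopython 1.88 and figures matplotlib 3.10.9 in Python 3.11.15.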

Additional observations from a re-analysis of the deposited data

How the results depend on the processing

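All 7 tested receptors kept their sign under every alternative that gave a value, including scaling by total library size only, which moved the median log2 fold change of all genes to 0.264 with 8 libraries and 0.252 with 6. The number of genes called depended on the setting. With 8 libraries edgeR called 0 genes, and the count was 882 (858 higher, 24 lower) with total library size only, 1 with no filter, 1113 by DESeq2, 951 by limma-voom with quality weights, 461 with 6 libraries and 249 at an adjusted p under 0.10. Leaving out each library in turn gave 0 to 361 genes, the most without KO replicate 2, and always 0 receptors. The receptors called went from 0 to 1 (Adrb1) by DESeq2, with quality weights and with 6 libraries. With 6 libraries the 461 calls became 1530 (1420 higher, 110 lower) with total library size only, 1527 by DESeq2, 1587 with quality weights, 1390 at an adjusted p under 0.10 and 0 with the replicate block. Leaving out each of the 6 gave 0 to 459 genes and 0 to 1 receptors, with 0 genes called without WT replicate 2 or KO replicate 4, 11 without WT replicate 1 and 19 without WT replicate 4. That setting leaves 2 libraries in a group. The 1 receptor called with 6 libraries became 2 (Adrb1 and Adra1a) with no filter, by DESeq2, with quality weights and at an adjusted p under 0.10, and 0 with the replicate block. The cause of these changes was not tested. Of the 7 receptors, DESeq2 with 6 libraries gave no adjusted p for Adra2a and Adra2b. Replicate numbers were not taken as pairs in the main fit. Same-numbered libraries had residual correlations of -0.0510, 0.0439, -0.130 and 0.224, and differently numbered ones lay between -0.299 and 0.159. With so few libraries these values do not settle whether the numbers pair them. With the replicate block Adrb1 had a log2 fold change of -1.06 with 8 libraries (adjusted p = 0.229) and -1.85 with 6 (edgeR adjusted p = 0.101). Halving the counts, chosen after the data were seen, changed no receptor's call.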

Other observations

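Low counts in the deposited table were mostly even numbers. Of the values from 1 to 20, between 69.8% and 71.8% were even in each library, against 49.4% to 51.0% of the values from 101 to 1000. For Adra1b and Adra2a all 16 values were even, 0 included.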
